A study of Arabidopsis thaliana with 32 samples.

Results

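The plastid ribosome is a bacterial-type particle with a small 30S and a large 50S subunit, and the nuclear genome of Arabidopsis encodes most of its proteins. This account follows 38 of these nuclear genes, of 21525 genes in the expression table: 24 genes of the 50S subunit (PRPL1 to PRPL35 and RPL12-A and RPL12-C), 9 of the 30S subunit (PRPS1 to PRPS21) and 5 for plastid-specific ribosomal proteins (PSRP2 to PSRP6). They were chosen by what they encode, from a list of locus identifiers, and the rule uses no expression value, although earlier results of these data were known. All 38 were in the table, none was at 0 in any leaf, and each single value lay between 962 and 18803 normalized counts.

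Wild-type Arabidopsis plants (Col-0) spent 3 h in air with 0, 100, 400 or 1000 ppm CO2, under the PSI photoinhibition regime (PSI-PI) or under their growth light (GL). PSI-PI puts repeated short steps of weak red and very bright white light between periods of growth light, a programme that damages photosystem I. Each of the 8 groups held 4 biological replicates, 32 leaves in all, with GL as the control light and 400 ppm, the atmospheric level, as the control CO2. All groups share the genotype and the growth conditions, so these genes are described in mature leaves of 1 accession only.

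The nuclear-encoded proteins are made in the cytosol, imported into the plastid and assembled there with plastid-encoded proteins and plastid ribosomal RNA. The finished ribosome makes the core subunits of both photosystems, the ATP synthase and the large subunit of Rubisco. In leaves these nuclear genes belong to the large set of photosynthesis-associated genes whose transcripts depend on light and on signals from the plastid.

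Promoters are shown for genes with high, near-zero and low fold changes in 1 of the comparisons below, 100 ppm against 400 ppm under GL. In RefSeq's TAIR10.1 assembly, windows of 300 bases before each annotated gene start were searched on both strands for 5 short motifs. These were the telo box (AAACCCTA), site II (TGGGCC or TGGGCT), the G-box (CACGTG), the I-box (GATAAG) and CCAATC, a motif reported for GLK factors. Each sequence below runs 5′ to 3′ on the strand of its gene, and capitals mark the motif matches. PSRP6 and PSRP4 were added after their values were seen, as the gene with the highest fold change and the gene with the most kinds of match in its untrimmed window, where an I-box lies in the part not printed. The windows of PRPL9 and PSRP4 are shorter because a neighbouring gene begins there.
PSRP6, chr5:5907289-5907588, + strand, highest fold change, 1 I-box on the opposite strand: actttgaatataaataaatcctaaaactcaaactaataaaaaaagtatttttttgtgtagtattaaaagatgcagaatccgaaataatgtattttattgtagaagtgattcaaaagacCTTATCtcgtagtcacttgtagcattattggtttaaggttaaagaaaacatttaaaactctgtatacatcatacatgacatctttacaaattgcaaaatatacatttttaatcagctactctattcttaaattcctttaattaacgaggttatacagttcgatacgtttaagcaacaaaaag
PSRP4, chr2:15980764-15980847, + strand, 1 G-box, 1 telo box on the opposite strand and 3 site II elements: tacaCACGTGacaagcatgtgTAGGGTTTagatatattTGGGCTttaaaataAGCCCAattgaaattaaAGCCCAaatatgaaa
PRPS5, chr2:14302497-14302796, − strand, among the smallest changes, 1 telo box on the opposite strand and 3 site II elements: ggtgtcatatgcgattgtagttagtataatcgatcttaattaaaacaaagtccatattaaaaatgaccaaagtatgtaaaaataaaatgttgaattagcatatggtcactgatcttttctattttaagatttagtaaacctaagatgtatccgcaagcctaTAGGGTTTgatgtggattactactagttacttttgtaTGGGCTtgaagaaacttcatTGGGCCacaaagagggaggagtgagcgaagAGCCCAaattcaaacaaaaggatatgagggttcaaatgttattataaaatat
PRPL9, chr3:16386345-16386394, + strand, among the smallest changes, no match: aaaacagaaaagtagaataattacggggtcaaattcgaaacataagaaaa
PSRP3/1, chr1:25758412-25758711, − strand, lowest fold change, no match: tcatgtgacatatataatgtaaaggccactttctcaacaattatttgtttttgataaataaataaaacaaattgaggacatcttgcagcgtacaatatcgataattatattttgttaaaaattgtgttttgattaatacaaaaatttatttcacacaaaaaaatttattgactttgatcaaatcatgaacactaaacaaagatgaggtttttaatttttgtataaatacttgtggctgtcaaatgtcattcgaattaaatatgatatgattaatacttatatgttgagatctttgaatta

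None of the 5 motifs was common to all 38 windows. The counts use the untrimmed windows, neighbouring genes included. Site II stood in 14 of the 38 windows (36.8%), against 20.8% of 27443 protein-coding nuclear genes and 63.0% of 27 cytosolic ribosomal protein genes. The I-box stood in 10 windows (26.3%, against 14.5% of all genes), the telo box in 5 (13.2%, against 5.21%), the GLK motif in 5 (13.2%, against 12.2%) and the G-box in 4 (10.5%, against 7.09%). In the cytosolic ribosomal protein genes the shares were 3.7% for the I-box, 14.8% for the telo box, 11.1% for the GLK motif and 3.7% for the G-box. A match is a run of letters and not a shown binding site, and a window without one says only that these letters are not in it.

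The 38 genes were among the abundant transcripts of the leaf. At 400 ppm under GL they lay between the 91.3rd and the 99.0th percentile of all genes by normalized count. Per kilobase of the longest transcript, the highest levels in that group were those of RPL12-A (10758 normalized counts per kb), RPL12-C (8951) and PRPS17 (8580). RPL12-A and RPL12-C lie close together on chromosome 3, at 10318455 to 10319920 (2 exons) and 10324788 to 10325746 (1 exon). Both encode the protein of the flexible stalk that binds translation factors. The lowest levels per kb were those of PRPL9 (2192), PSRP6 (2148) and PRPL19b (2136). Together the 38 genes took between 0.485% and 1.20% of all normalized counts in a leaf.

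**Figure D1:**
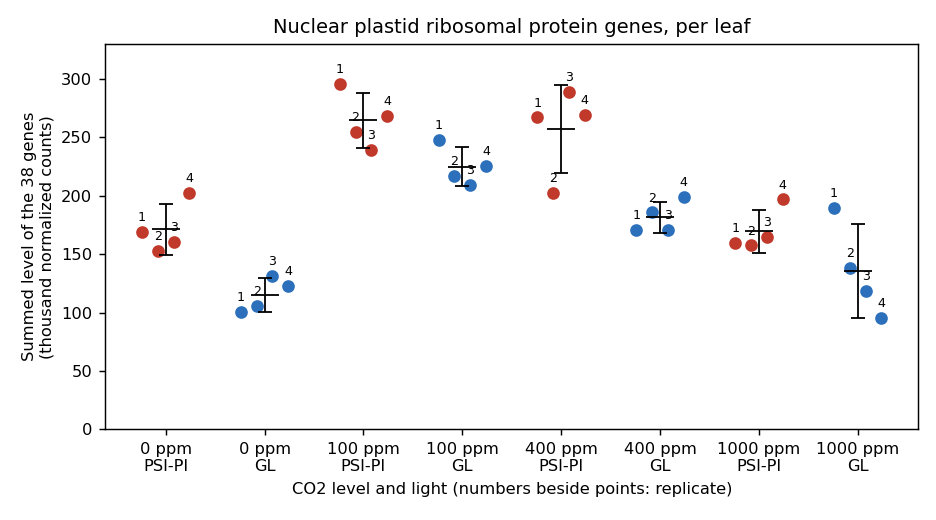
Summed level of the 38 genes in each leaf, in units of 1000 normalized counts, for PSI-PI (red) and GL (blue) at each CO2 level. Points are leaves numbered by replicate, bars are the mean and SD of 4 leaves. The sum was highest at 100 and 400 ppm under PSI-PI and lowest at 0 ppm under GL, and the 4 leaves at 1000 ppm under GL spread from 95430 to 189656.

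The sum over the 38 genes separates the lights at 0 and 400 ppm before any test. At 0 ppm the 4 leaves had 169141, 152429, 160804 and 202755 normalized counts under PSI-PI, against 100302, 105479, 131543 and 122713 under GL. At 400 ppm they had 267112, 202296, 289287 and 269499 under PSI-PI, against 171033, 185693, 170624 and 198711 under GL. In both pairs every PSI-PI leaf lay above every GL leaf. At 100 ppm the sums were 295575, 255031, 239461 and 268207 under PSI-PI, against 247858, 216685, 208977 and 225671 under GL. At 1000 ppm they were 159406, 157471, 164803 and 196890 under PSI-PI, against 189656, 137969, 118327 and 95430 under GL. At these levels the groups overlapped, by 1 GL leaf in each case.

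Some leaves stood apart for nearly all genes at once. At 1000 ppm under GL, replicate 1 was the highest leaf for 38 of the 38 genes and replicate 4 the lowest for 37. At 400 ppm under PSI-PI, replicate 2 was the lowest leaf for 38 of the 38 and replicate 3 the highest for 36. At 1000 ppm under PSI-PI and at 400 ppm under GL, replicate 4 was the highest leaf for 36 and 35 genes. Counts are therefore also given below without the leaves that decide them.

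Some of these leaves also stood apart in 6 mesophyll markers (RBCS1A, RCA, CA1, GLDP1, LHCB1.3 and GAPA), the genes of carbon fixation, photorespiration and light harvesting that define green leaf tissue. Their sum was 1021020 normalized counts in replicate 1 at 1000 ppm under GL, against 516114 to 597499 in the other 3 leaves. It was 1049390 in replicate 2 at 400 ppm under PSI-PI, against 1511890 to 1582810 in the other 3. Replicate 3 of that group (1552430) and replicate 4 at 400 ppm under GL (1122260, against 1030780 to 1068900) did not stand far from their groups. By group the marker sum was 568589 to 1147130 under PSI-PI, against 337309 to 581764 under GL at 0 ppm, and 1749600 to 2461260 against 1410260 to 1616570 at 100 ppm. At 400 ppm it was 1049390 to 1582810 under PSI-PI, against 1030780 to 1122260 under GL, and at 1000 ppm 878139 to 1398880 against 516114 to 1021020. By group mean, the mesophyll sum and the sum of the ribosomal genes were higher under PSI-PI than under GL at each CO2 level. They did not always move together. From 400 to 100 ppm under PSI-PI the mean mesophyll sum went from 1424130 to 2048340, and the mean ribosomal sum from 257048 to 264568. At 100 ppm under GL, replicate 1 had the lowest mesophyll sum (1410260) and the highest ribosomal sum (247858). The part of the mesophyll sum in the results was not tested. In whole-leaf RNA, fewer cells of a type and less RNA per cell cannot be told apart. The paper reports that PSI-PI raised many genes of carbon fixation and photorespiration and mostly lowered light-harvesting genes of photosystem II. The mesophyll markers belong to these classes, so their sum can follow the treatment itself and is not a measure of cell number alone. Of the other cell types, 4 guard cell markers (MYB60, FAMA, KAT1 and HT1) summed to 479 to 1222 normalized counts over all leaves and 3 flower markers to 6.56 to 41.7. The 4 root markers were not analysed here. The sum of all normalized values was 18494378 to 31211055 per leaf and was highest at 100 ppm. The reads behind it are not known.

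Each comparison below comes from 1 limma model of all 32 leaves, with p-values adjusted by Benjamini-Hochberg over 21469 genes. A gene is called at an adjusted p under 0.05, and it is a DEG where its log2 fold change is also at least 1 in size. Fold changes are on the scale log2(normalized count + 1).

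The light comparison asks what PSI-PI did at a given CO2 level. Every one of the 38 genes had a higher mean log2 level under PSI-PI than under GL at each of the 4 CO2 levels, but the number called differed widely. At 0 ppm 26 genes rose, against 4.51% of all genes called higher, and at 400 ppm 25 rose, against 13.8% of all genes. At 1000 ppm 4 rose (6.89% of all genes called higher) and at 100 ppm 1 rose (6.64%). None fell at any level, where 2.53%, 3.13%, 11% and 3.57% of all genes were called lower from 0 to 1000 ppm. None was a DEG, where 1.02%, 1.27%, 3.28% and 1.86% of all genes were DEGs with a higher level under PSI-PI.

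At 0 ppm the median log2 fold change of the 38 genes was 0.61 (0.24 to 0.98), against −0.01 over all genes. For 28 of the 38 every PSI-PI leaf lay above every GL leaf (4.86% of all genes). Of the 6 mesophyll markers, CA1 and GAPA rose as well. By subunit, 19 of the 24 50S genes, 4 of the 9 30S genes and 3 of the 5 PSRP genes rose.

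PRPL18 (AT1G48350; chromosome 1, 17867102 to 17868432, 3 exons), a relative of the bacterial protein that binds 5S rRNA, showed the highest fold change at 0 ppm. Its levels were 4013, 2227, 2529 and 2644 normalized counts under PSI-PI, against 962, 1687, 1342 and 1824 under GL. Every PSI-PI leaf was above every GL leaf. The log2 fold change was 0.98 (SE 0.20, adjusted p = 0.00291, limma).

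Among the small-subunit genes PRPS6, PRPS13, PRPS10 and PRPS20 rose at 0 ppm, by 0.72, 0.67, 0.60 and 0.58. PRPS6, which in bacteria lies on the platform of the small subunit, had 2546, 2002, 2342 and 2875 normalized counts under PSI-PI, against 1342, 1321, 1571 and 1684 under GL (limma adjusted p = 0.0143). Its groups were well separated. The 5 others, PRPS5, PRPS21, PRPS1, PRPS9 and PRPS17, had log2 fold changes of 0.39 to 0.53 and adjusted p of 0.0534 to 0.187.

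PRPL15, a large-subunit core protein, had 7303, 5567, 5955 and 7673 normalized counts under PSI-PI at 0 ppm, against 2986, 3221, 3433 and 4283 under GL. The ranges lay far apart, with a log2 fold change of 0.93 (SE 0.19, limma adjusted p = 0.00331). PRPL34, a small basic protein of the large subunit, had 1788, 1906, 2015 and 2760 under PSI-PI, against 1083, 1159, 1110 and 1265 under GL. Its log2 fold change was 0.86 (limma adjusted p = 0.00652), again without overlap.

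The plastid-specific PSRP5 (0.69, limma adjusted p = 0.00298), PSRP6 (0.68, 0.00703) and PSRP2 (0.64, 0.031) rose at 0 ppm. PSRP5 had 4641, 4281, 4331 and 5615 normalized counts under PSI-PI, against 2469, 2818, 2943 and 3456 under GL, with no overlap. PSRP2, an RNA-binding protein of the small subunit, had 2465, 2587, 3121 and 3855 under PSI-PI, against 1534, 1878, 2231 and 2043 under GL. PSRP4 (0.40, adjusted p = 0.0911) and PSRP3/1 (0.38, 0.227) were not called.

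At the other end stood PRPL1, the protein of the L1 stalk beside the tRNA exit site. It had 4673, 6843, 7134 and 9607 normalized counts under PSI-PI at 0 ppm, against 6410, 4834, 6580 and 5531 under GL. The lowest leaf of all was a PSI-PI leaf, and the log2 fold change of 0.24 was not called (adjusted p = 0.397). The 26 calls at 0 ppm were not kept in every fit. With only the 8 leaves of the comparison fitted no gene was called, although 33 had an unadjusted p under 0.05, and without replicate 1 of the GL leaves 10 were called.

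**Figure D2:**
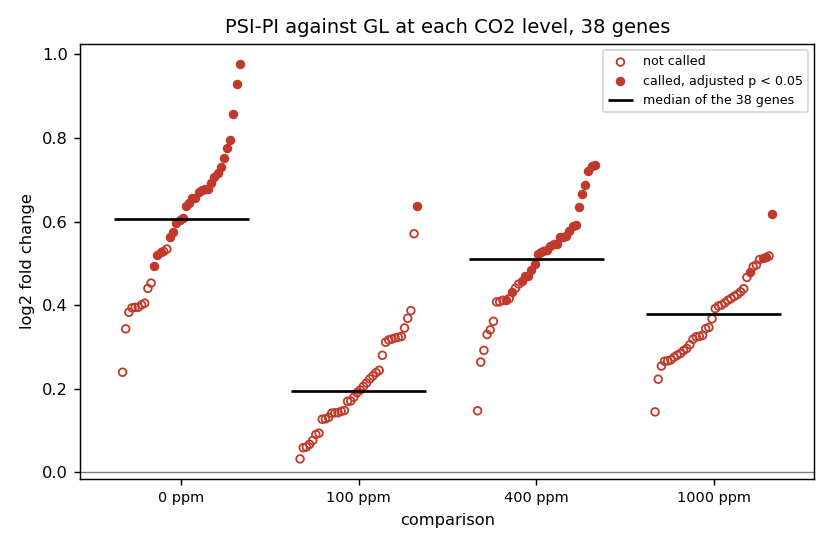
Log2 fold change of PSI-PI against GL for each of the 38 genes at 0, 100, 400 and 1000 ppm CO2, ordered by size within a level. Filled points are called (adjusted p under 0.05), open points are not, and the line is the median of the 38 genes. All points lie above 0, and most are filled at 0 and 400 ppm only.

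At 400 ppm the median was 0.51 (0.15 to 0.74), against −0.01 over all genes. Of the 50S genes 17 of 24 rose, of the 30S genes 5 of 9 and of the PSRP genes 3 of 5. PSI-PI leaves lay above all GL leaves for 20 of the 38 (17.8% of all genes). Of the 6 mesophyll markers, 3 rose with them, RCA, GAPA and GLDP1, while LHCB1.3 lay below 0 (−0.46, not called).

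PRPL19a, 1 of 2 genes for the bL19-type protein at the face between the subunits, led at 400 ppm. It had 5024, 4011, 5553 and 5406 normalized counts under PSI-PI, against 2653, 3311, 2625 and 3409 under GL, without overlap. Its log2 fold change was 0.74 (SE 0.19, limma adjusted p = 0.00455). PSRP6, a plastid-specific protein of the large subunit with no bacterial counterpart, had 3060, 2735, 3520 and 3107 under PSI-PI, against 1618, 1999, 1965 and 1946 under GL. That is a log2 fold change of 0.72 (SE 0.15, limma adjusted p = 0.000815), and the lowest PSI-PI leaf was well above the highest GL leaf.

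PRPL5, the other large-subunit protein of the 5S rRNA complex, had 6792, 4700, 7282 and 6602 normalized counts under PSI-PI at 400 ppm, against 3817, 3995, 3502 and 4281 under GL (0.69, limma adjusted p = 0.00398). All its PSI-PI leaves were above its GL leaves. The small-subunit genes that rose at 400 ppm were PRPS5 (0.58), PRPS10 (0.55), PRPS6 (0.48), PRPS13 (0.47) and PRPS1 (0.41). PRPS6 had 4060, 2594, 4203 and 3896 under PSI-PI, against 2418, 2554, 2519 and 2904 under GL, and its adjusted p was 0.0474. Replicate 2 of the PSI-PI leaves lay among the GL leaves here.

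PRPL18 at 400 ppm had 3641, 2628, 3898 and 3754 normalized counts under PSI-PI, against 1858, 2175, 1880 and 2417 under GL (log2 fold change 0.73, limma adjusted p = 0.00673). Replicate 2 was the lowest PSI-PI leaf here too. PSRP3/1, a plastid-specific protein of the small subunit, had 5975, 4880, 6599 and 5610 under PSI-PI, against 4963, 5168, 5273 and 5305 under GL. Its groups overlapped and its log2 fold change of 0.15 was not called (adjusted p = 0.622). Without replicate 2 of the PSI-PI leaves 33 of the 38 genes were called at 400 ppm, and without replicate 3 only 9. Quantile normalization left 8 calls and scaling to equal totals 15, with 37 and 38 of the fold changes above 0.

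At 100 ppm the median was 0.19 (0.03 to 0.64), against 0.00 over all genes. The gene called was RPL12-C, with 14330, 13135, 11419 and 13089 normalized counts under PSI-PI, against 9031, 8011, 8533 and 7784 under GL. Its groups stood clear of each other, and its log2 fold change was 0.64 (SE 0.19, limma adjusted p = 0.0278). PRPL10, the protein that anchors the RPL12 stalk to the large subunit, was next in size, with 8114, 6875, 5694 and 7244 under PSI-PI, against 4325, 4708, 5083 and 4565 under GL. It did not pass the test (log2 fold change 0.57, adjusted p = 0.0751). Without overlap, PSI-PI was higher for 9 of the 38 genes (12% of all genes). Under quantile normalization or equal totals no gene was called at 100 ppm, and 23 and 24 of the 38 fold changes were above 0, so the common direction at this level depends on the scaling. The call of RPL12-C is lost under both (adjusted p = 0.179 and 0.0668) and in 6 of the 8 fits without 1 leaf (adjusted p = 0.0324 to 0.089). Of the mesophyll markers GAPA and GLDP1 rose at 100 ppm, and LHCB1.3 lay below 0 (−0.15, not called).

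At 1000 ppm the median was 0.38 (0.14 to 0.62), against −0.01 over all genes, and no gene had groups without overlap (9.11% of all genes with PSI-PI higher). The 4 that rose were PRPL19a (0.62, adjusted p = 0.033), PSRP5 (0.52, 0.0161), PSRP6 (0.51, 0.0286) and PRPL27 (0.48, 0.0466), by limma. PSRP5, also plastid-specific and of the large subunit, had 3918, 3831, 4196 and 5005 normalized counts under PSI-PI, against 4006, 3042, 2815 and 2197 under GL. The overlap came from replicate 1 of the GL leaves. Without that leaf 31 of the 38 genes were called, and without replicate 4 of either light none was, so the count at 1000 ppm rests on single leaves. PSRP5 lost its call in 2 of the 8 fits without 1 leaf, and PRPL19a and PSRP6 in 5 each. Of the mesophyll markers RCA, GAPA and GLDP1 rose in this comparison, and LHCB1.3 was near 0 (−0.03, not called). Under quantile normalization or equal totals 1 gene was called, with 36 and 37 of the fold changes above 0.

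The CO2 comparisons set each level against 400 ppm within a light, so the 3 comparisons of a light share their control leaves. Without CO2 most of the genes fell in both lights. Under GL 34 of the 38 fell at 0 ppm (16.6% of all genes called lower), 3 of them DEGs (5.68% of all genes), and under PSI-PI 31 fell (11%). At 100 ppm 10 rose under GL (17.4% of all genes called higher) and 1 under PSI-PI (11.2%). At 1000 ppm none was called under GL and 16 fell under PSI-PI (1.01% of all genes called lower).

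**Figure D3:**
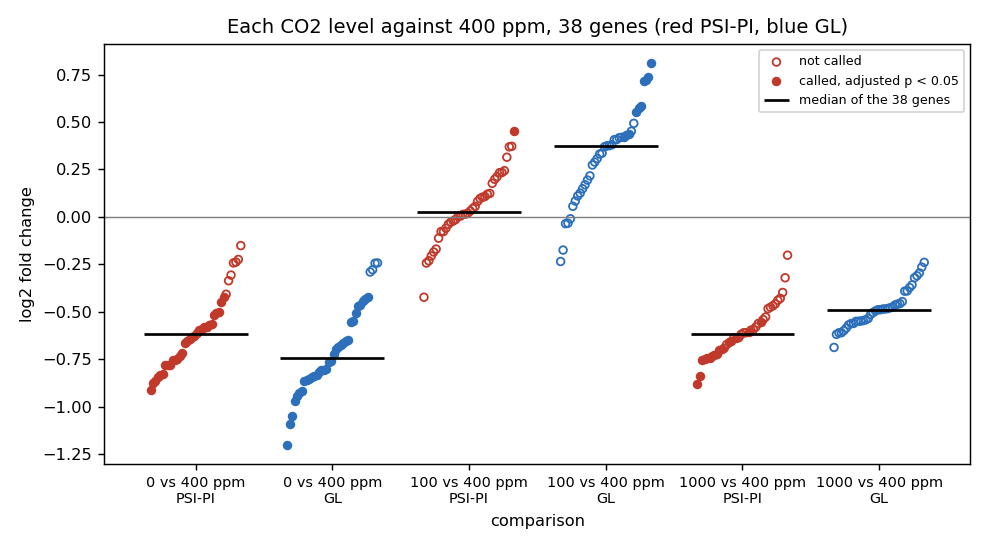
Log2 fold change of 0, 100 and 1000 ppm CO2 against 400 ppm for each of the 38 genes, under PSI-PI (red) and GL (blue). Filled points are called (adjusted p under 0.05), open points are not, and the line is the median of the 38. All points at 0 and at 1000 ppm lie below 0, and at 100 ppm they lie on both sides.

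The guard cell markers also moved with CO2. Their sum was 518 to 643 normalized counts at 0 ppm, 483 to 621 at 100 ppm and 924 to 1191 at 1000 ppm under PSI-PI, against 655 to 813 at 400 ppm. Under GL it was 516 to 626 at 0 ppm, 479 to 631 at 100 ppm and 957 to 1222 at 1000 ppm, against 730 to 823 at 400 ppm. FAMA, a transcription factor of guard cell formation, fell at 0 ppm (−0.63 under PSI-PI and −0.61 under GL) and at 100 ppm (−0.64 and −0.59), HT1 fell at 0 ppm under GL (−0.72), and at 1000 ppm KAT1 rose under PSI-PI (1.18) and MYB60 under GL (0.80). The part of these shifts in the results was not tested.

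Under GL at 0 ppm the median log2 fold change was −0.74 (−1.20 to −0.24), against 0.00 over all genes. All 9 30S genes fell, with 21 of the 24 50S genes and 4 of the 5 PSRP genes. All leaves at 0 ppm lay below those at 400 ppm for 32 of the 38 (15.7% of all genes). Leaving out any 1 leaf left between 29 and 32 genes called. Of the mesophyll markers 3 of 6 fell in the same comparison, LHCB1.3, RBCS1A and CA1.

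The 3 DEGs were PRPL34, PRPL4 and PRPL13. PRPL34 (AT1G29070; chromosome 1, 10149791 to 10151407, 2 exons) had 1083, 1159, 1110 and 1265 normalized counts at 0 ppm, against 2468, 2559, 2522 and 3084 at 400 ppm. Its log2 fold change was −1.20 (SE 0.19, limma adjusted p = 3.74e-05). PRPL4 (AT1G07320; chromosome 1, 2248967 to 2250529, 2 exons), whose bacterial relative lines the exit tunnel, had 2260, 2274, 3345 and 2985 at 0 ppm, against 5249, 5917, 5475 and 6239 at 400 ppm. The log2 fold change was −1.09 (SE 0.18, limma adjusted p = 6.64e-05). For both genes the highest leaf at 0 ppm was far below the lowest at 400 ppm.

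The 9 small-subunit genes fell by similar amounts, from −0.86 for PRPS5 to −0.45 for PRPS13 on the log2 scale. PRPS5 had 2737, 2575, 3953 and 3233 normalized counts at 0 ppm, against 5387, 5659, 5320 and 6064 at 400 ppm (limma adjusted p = 0.000327). PRPS9 had 2414, 1976, 3098 and 2593 at 0 ppm, against 4447, 4508, 4135 and 4770 at 400 ppm (−0.84, limma adjusted p = 0.000892). Neither gene showed any overlap. The stalk genes RPL12-A (−0.68, limma adjusted p = 0.00412), RPL12-C (−0.81, 0.00149) and PRPL10 (−0.94, 0.00083) fell as well. RPL12-A had 5897, 5766, 9566 and 6383 at 0 ppm, against 10592, 10900, 10574 and 11353 at 400 ppm, and replicate 3 stood high among the leaves without CO2. PRPL11, a protein of the centre where translation factors hydrolyse GTP, had 1880, 1802, 2075 and 1876 at 0 ppm, against 3249, 3467, 3184 and 3936 at 400 ppm (−0.85, limma adjusted p = 0.000147). Those leaves without CO2 were close to each other and far below the rest.

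PRPL13, a large-subunit protein that binds rRNA early in assembly in bacteria, had 2234, 1962, 2363 and 2552 normalized counts at 0 ppm, against 4391, 4741, 4489 and 5215 at 400 ppm. The log2 fold change was −1.05 (SE 0.16, limma adjusted p = 2.8e-05), again without overlap. The 4 genes not called at 0 ppm under GL were PSRP6 (−0.29, adjusted p = 0.145), PRPL6 (−0.28, 0.129), PRPL29 (−0.24, 0.252) and PRPL31 (−0.24, 0.193). PRPL31, in bacteria a protein of the bridge between the subunits, had 2157, 2574, 2481 and 2967 at 0 ppm, against 2837, 3192, 2817 and 3142 at 400 ppm. Its groups overlapped by 1 leaf at 0 ppm.

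Under PSI-PI at 0 ppm the median was −0.62 (−0.91 to −0.15), against 0.00 over all genes, and 19 50S, 8 30S and 4 PSRP genes fell. All leaves at 0 ppm lay below those at 400 ppm for 12 of the 38 (8.1% of all genes). PRPS5, in bacteria a small-subunit protein near the decoding site, had 3350, 4270, 4545 and 6000 normalized counts at 0 ppm, against 9080, 6825, 9104 and 8673 at 400 ppm. Its log2 fold change was −0.91 (limma adjusted p = 0.000771). PRPL34 (−0.88, adjusted p = 0.00271) and PRPL4 (−0.87, 0.00214) followed. PRPL34 had 1788, 1906, 2015 and 2760 at 0 ppm, against 4052, 2680, 4711 and 4199 at 400 ppm, where replicate 2 fell into the range of the leaves without CO2. With only the 8 leaves of the comparison fitted, 2 of the 38 genes were called, and 32 had an unadjusted p under 0.05. Of the mesophyll markers 3 of 6 fell.

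At 100 ppm under GL the genes moved less alike. The median was 0.37 (−0.24 to 0.81), against 0.02 over all genes, 33 of the 38 fold changes were above 0 and the groups did not overlap for 22 (20.3% of all genes with 100 ppm higher). The 10 that rose were 5 of the 24 50S genes, 2 of the 9 30S genes and 3 of the 5 PSRP genes. These 10 of 38 stand beside 17.4% of all genes called higher, and with only the 8 leaves of the comparison fitted 25 of the 38 were called. Of the mesophyll markers GAPA rose.

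PSRP6 (AT5G17870; chromosome 5, 5907589 to 5908464, 1 exon), whose promoter is printed above, rose most. It had 3932, 3356, 2894 and 3065 normalized counts at 100 ppm, against 1618, 1999, 1965 and 1946 at 400 ppm. The log2 fold change was 0.81 (SE 0.15, limma adjusted p = 0.000165), and the groups stood well apart. PRPL29, which in bacteria sits at the mouth of the exit tunnel, had 12638, 9724, 8519 and 9740 at 100 ppm, against 5828, 6638, 5415 and 6292 at 400 ppm (log2 fold change 0.74, SE 0.16, limma adjusted p = 0.000748).

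PRPL31 had 6333, 4526, 4193 and 4961 normalized counts at 100 ppm, against 2837, 3192, 2817 and 3142 at 400 ppm (log2 fold change 0.72, SE 0.14, limma adjusted p = 0.000257). PRPS13, a protein of the head of the small subunit, had 9213, 7342, 6872 and 7479 at 100 ppm, against 4579, 4819, 4382 and 4951 at 400 ppm (log2 fold change 0.71, limma adjusted p = 0.00111). PSRP4 (AT2G38140), a plastid-specific protein of the small subunit, had 3664, 3217, 3190 and 3578 at 100 ppm, against 2168, 2281, 2180 and 2464 at 400 ppm (log2 fold change 0.58, limma adjusted p = 0.00247). In all 3 genes every leaf at 100 ppm was above every leaf at 400 ppm. PRPL6 rose as well (0.55, limma adjusted p = 0.00297).

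The 5 genes with a fold change below 0 at 100 ppm under GL were PSRP3/1, PRPL10, RPL12-C, PRPL9 and PRPS5, none of them called. PSRP3/1 had 5317, 4366, 4225 and 3809 normalized counts at 100 ppm, against 4963, 5168, 5273 and 5305 at 400 ppm (log2 fold change −0.24, adjusted p = 0.357). PRPS5 had 5567, 5574, 5517 and 5584 at 100 ppm, against 5387, 5659, 5320 and 6064 at 400 ppm (−0.01, adjusted p = 0.973). Its 4 leaves at 100 ppm lay inside the range of those at 400 ppm.

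The scaling of the libraries matters most at 100 ppm. Set to equal totals, the median of all genes moved to −0.24 in this comparison and that of the 38 genes to 0.10, with 4 called higher and 1 lower. Under quantile normalization the medians were −0.00 and 0.17, with 5 called higher. Of the 38 fold changes 24 were above 0 under equal totals and 26 under quantile normalization.

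At 100 ppm under PSI-PI the median was 0.02 (−0.42 to 0.45), against 0.03 over all genes. PRPS13 was the gene called (0.45, limma adjusted p = 0.0446), with 8004, 9143, 9078 and 9258 normalized counts at 100 ppm, against 6759, 5028, 7066 and 7325 at 400 ppm. Its groups did not overlap, as for 4 of the 38 with 100 ppm higher (16% of all genes), but the call was lost under quantile normalization (adjusted p = 0.237), equal totals (0.437), a fit without a mean-variance trend (0.0508) and 6 of the 8 fits without 1 leaf (0.0386 to 0.183). Of the mesophyll markers LHCB1.3 and GAPA rose. The median of the 38 turned to −0.17 under quantile normalization and −0.27 under equal totals, where 7 genes were called lower.

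At 1000 ppm the 38 fold changes were all below 0 in both lights. Under GL the median was −0.49 (−0.69 to −0.24), against 0.00 over all genes. Limma called none of the 38, against 0.2% of all genes called lower, while 33 of the 38 had an unadjusted p under 0.05, against 10.5% of all genes. PRPL15 had the lowest fold change (−0.69, adjusted p = 0.124), with 6611, 4365, 3662 and 2546 normalized counts at 1000 ppm, against 6107, 7021, 5782 and 7315 at 400 ppm. Replicate 1 alone lay in the range of 400 ppm. Without that leaf, which was the highest of its group for all 38 genes, 29 of the 38 were called lower. Leaving out any other single leaf of the 2 groups left none called. For none of the 38 were all leaves at 1000 ppm below those at 400 ppm (3.96% of all genes).

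Under PSI-PI at 1000 ppm the median was −0.61 (−0.88 to −0.20), against 0.00 over all genes, and 13 of the 24 50S genes, 1 of the 9 30S genes and 2 of the 5 PSRP genes fell. The groups did not overlap for 24, with 1000 ppm lower (6.28% of all genes). PRPL15 had 5189, 4729, 5251 and 6334 normalized counts at 1000 ppm, against 10356, 7348, 11168 and 10982 at 400 ppm (−0.88, limma adjusted p = 0.0234). PRPL18 had 1769, 1970, 2024 and 1935 at 1000 ppm, against 3641, 2628, 3898 and 3754 at 400 ppm (−0.84, limma adjusted p = 0.0321). Both genes were lower in every leaf at 1000 ppm than in any at 400 ppm. PRPL21 had 3414, 3341, 3528 and 4031 at 1000 ppm, against 6473, 4466, 6925 and 6565 at 400 ppm (−0.75, limma adjusted p = 0.0321). The small-subunit gene that fell was PRPS20 (−0.70, limma adjusted p = 0.0252), and the other 8 had log2 fold changes of −0.69 to −0.40 and adjusted p of 0.0636 to 0.155. PSRP6 (−0.70, 0.0241) and PSRP5 (−0.60, 0.0309) fell, and PSRP3/1 had the smallest change (−0.20, adjusted p = 0.636). Without replicate 2 of the 400 ppm leaves 30 of the 38 were called, and without replicate 3 of the 400 ppm or replicate 2 of the 1000 ppm leaves none was. PRPL15 lost its call in 5 of the 8 fits without 1 leaf, and PRPL18 and PRPL21 in 6 each. No mesophyll marker of the 6 was called at 1000 ppm against 400 ppm in either light.

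**Figure D4:**
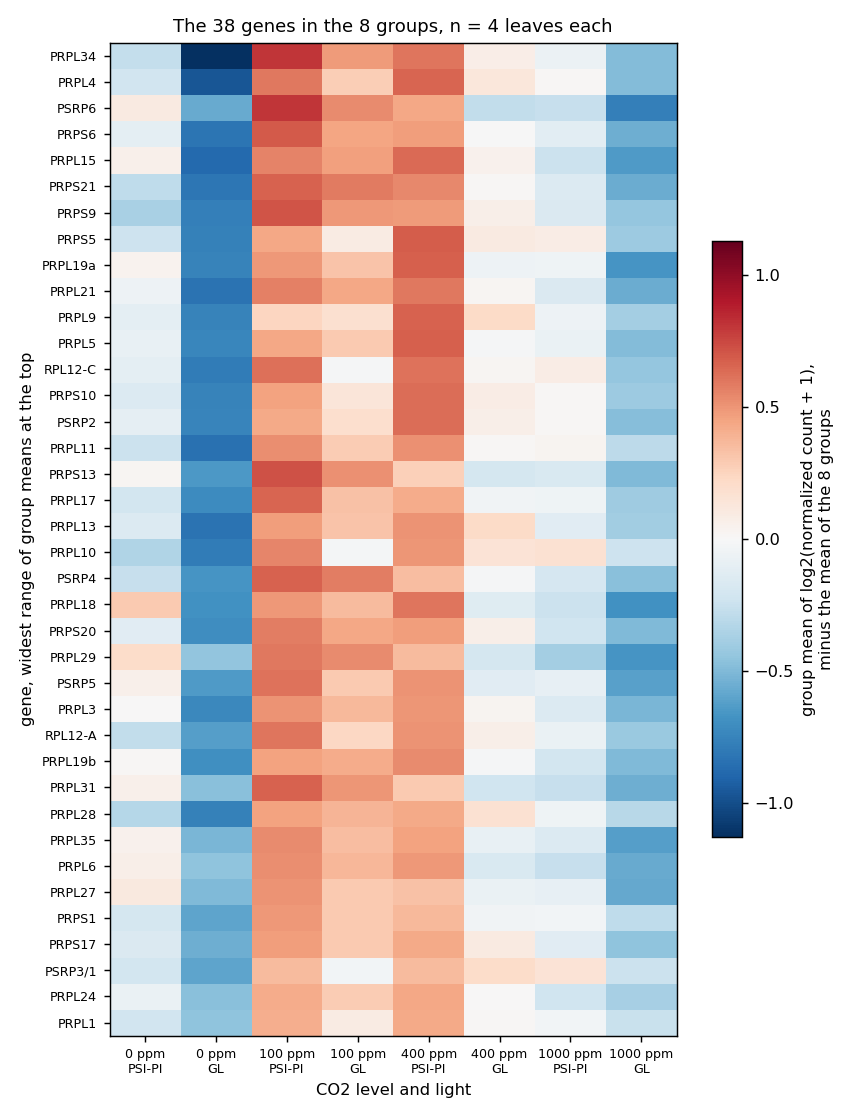
Group means of log2(normalized count + 1) for the 38 genes in the 8 groups, each as the difference from the gene's mean over the 8 groups (colour scale, log2 units; n = 4 leaves a group). Genes with the widest range are at the top, led by PRPL34. Red fields gather at 100 and 400 ppm under PSI-PI and at 100 ppm under GL, and the bluest column is 0 ppm under GL.

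With the deposited scaling, the widest of the CO2 comparisons under GL lay between the 2 low levels. Under PSI-PI the median at 0 ppm against 400 ppm was about as large (−0.62). At 0 ppm against 100 ppm all 38 genes fell under GL (17.7% of all genes called lower), 20 of them DEGs (8.16% of all genes), with a median of −1.04 (−1.61 to −0.55), against 0.03 over all genes. Under PSI-PI 34 fell (17.7%), 2 of them DEGs (6.26%), with a median of −0.63 (−1.08 to −0.19), against 0.00 over all genes. The groups did not overlap for 37 and 33 genes, with 0 ppm lower (14.8% and 14.6% of all genes). PRPL34 under GL had 1083, 1159, 1110 and 1265 normalized counts at 0 ppm, against 3794, 3376, 3248 and 3647 at 100 ppm (log2 fold change −1.61, limma adjusted p = 7.71e-07).

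PRPS21, a small protein of the small subunit, had 2337, 2039, 2203 and 2281 normalized counts at 0 ppm under GL, against 6181, 5873, 5115 and 6408 at 100 ppm (log2 fold change −1.41, limma adjusted p = 1.3e-05). PRPL15 followed (−1.34, limma adjusted p = 6.67e-06). Under PSI-PI, PRPS9, whose bacterial relative reaches the tRNA in the peptidyl site, had 2658, 3164, 3153 and 4440 at 0 ppm, against 9187, 6316, 5720 and 7034 at 100 ppm. Its log2 fold change was −1.08 (limma adjusted p = 8.68e-05), with PRPL34 close behind (−1.07, 0.000139). In each of these genes every leaf without CO2 was below every leaf at 100 ppm.

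The 4 genes not called under PSI-PI were PRPL19a, PRPL29, PRPL9 and PRPL18. PRPL18 had 4013, 2227, 2529 and 2644 normalized counts at 0 ppm, against 3479, 3074, 3199 and 2997 at 100 ppm (−0.19, adjusted p = 0.478), where replicate 1 at 0 ppm was the highest leaf of all. Of the 6 mesophyll markers 5 fell at 0 ppm against 100 ppm under GL and 6 under PSI-PI. Scaled to equal totals, the median of all genes moved to 0.37 under GL and 0.36 under PSI-PI. The 38 genes then had medians of −0.67 and −0.24, with 35 and 14 called lower. At 0 ppm against 400 ppm the medians under equal totals were −0.65 under GL and −0.53 under PSI-PI. Which comparison was wider thus depends on the scaling under PSI-PI. All 38 fold changes stayed below 0 under GL and 35 of the 38 under PSI-PI.

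Across the 8 groups the highest mean was that of 100 ppm PSI-PI for 23 genes and of 400 ppm PSI-PI for 15. The order of these 2 groups depends on the scaling. Of the 38 fold changes between them, 24 were above 0 at 100 ppm as deposited, 9 under quantile normalization and 4 under equal totals. The lowest mean was that of 0 ppm GL for 32 and of 1000 ppm GL for 6. The ratio of the highest to the lowest group mean was from 1.84 for PRPL1 to 3.83 for PRPL34, whose means were 4426 ± 618 at 100 ppm PSI-PI and 1154 ± 80.5 at 0 ppm GL (SD, n = 4 each).

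Whether the effect of PSI-PI depended on CO2 was tested as an interaction, the difference between the PSI-PI effect at 0, 100 or 1000 ppm and that at 400 ppm. Limma called none of the 38 genes in any of the 3, against 3%, 0.0466% and 0% of all genes in either direction. At an unadjusted p under 0.05 there were 0 genes for 0 ppm, 6 for 100 ppm and 0 for 1000 ppm. The medians were 0.08, −0.26 and −0.12, with 29 of 38 above 0 for 0 ppm, and 35 and 34 of 38 below 0 for 100 and 1000 ppm. The differing counts of calls between CO2 levels in the light comparison are thus not shown to be differences in the effect itself. PRPL18 had the lowest value, −0.61 for 100 ppm (adjusted p = 0.399).

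The same protein can come from 2 genes, and the deposited values divide reads between near-identical transcripts by estimation, so values within such a pair are less certain than their sum. Under PSI-PI the log2 fold change was 0.34 for RPL12-A and 0.68 for RPL12-C at 0 ppm, and 0.44 and 0.59 at 400 ppm. RPL12-A was not called at either level (limma adjusted p = 0.258 and 0.0707) and RPL12-C was called at both (0.0247 and 0.0204). At 400 ppm the call of RPL12-C was lost in 2 of the 8 fits without 1 leaf, and RPL12-A was called in 1 of them. The difference between the genes was not tested. Another gene of the family, RPL12-B, was not analysed here. Of the PRPL19 genes, PRPL19a and PRPL19b both rose under PSI-PI at 0 ppm (0.80 and 0.71) and at 400 ppm (0.74 and 0.55). At 400 ppm PRPL19b had 3334, 2353, 3652 and 3373 normalized counts under PSI-PI, against 2023, 2247, 1944 and 2407 under GL, an overlap by replicate 2. Its call there was lost without replicate 3 of the PSI-PI leaves (adjusted p = 0.0592).

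Within groups the 38 genes varied together from leaf to leaf. Over the 32 leaves, each taken as its deviation from its group mean on the log2 scale, the median Pearson correlation over pairs of the 38 genes was 0.80 (−0.05 to 0.98). It was 0.87 over pairs of cytosolic ribosomal protein genes and 0.40 over pairs of plastid-encoded ones. The values of a leaf share its library and its scaling, so these are descriptions. PRPL17 was the gene with the highest median correlation with the others (0.88) and PRPL1 the one with the lowest (0.58). RPL12-A and RPL12-C correlated at 0.93 and PRPL19a and PRPL19b at 0.84. A shared deviation of this kind, with a pooled SD of 0.23 log2 units in the median of the 38 between leaves of a group, means that the 38 genes are not 38 separate pieces of evidence.

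Other genes of the plastid ribosome and its makers were compared in the same fit. At 400 ppm, PSI-PI against GL, 9 of 14 plastid translation factors, 13 of 17 assembly and rRNA processing factors and 10 of 12 plastid RNA polymerase-associated proteins rose, with medians of 0.64, 0.60 and 0.59. None of these fell. Of 21 plastid-encoded ribosomal protein genes 4 rose (median 0.20), and of 27 cytosolic ribosomal protein genes none rose and 3 fell (median −0.19). Among the plastid-encoded genes that rose was rps16, with means of only 3.88 normalized counts under PSI-PI and 1.18 under GL. Its call was lost in 6 of the 8 fits without 1 leaf, that of rpl32 in 5 and that of rps18 in 1. The cytosolic RPL4D lost its call in 3 of these fits, and RPL4A and RPS6A in 2 each. Of all genes 13.8% were called higher and 11% lower in this comparison.

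Among the factors, PRFB3, a protein related to release factors that stabilizes a plastid transcript, rose most under PSI-PI at 400 ppm (1.21, limma adjusted p = 2.15e-09). SVR3, a plastid GTPase related to translation factors, had 32096, 33919, 38028 and 32900 normalized counts under PSI-PI, against 13195, 16555, 19230 and 19576 under GL (1.01, limma adjusted p = 0.000667). SCO1, the plastid elongation factor G (0.95), RH3, a helicase of rRNA maturation (0.90), and RAP, which acts on the 16S rRNA precursor (0.83, limma adjusted p = 1.33e-05), rose as well. RAP had 1684, 1565, 2003 and 1660 under PSI-PI, against 901, 953, 984 and 1024 under GL.

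At 0 ppm under GL the lists fell in part, with 9 of 17 assembly factors, 6 of 14 translation factors, 5 of 12 polymerase-associated, 5 of 21 plastid-encoded and 10 of 27 cytosolic genes lower, and 1 translation factor higher, where 16.6% of all genes were called lower. Their medians lay from −0.26 to −0.44, beside −0.74 for the 38 genes. At 100 ppm under GL the medians of 3 lists were below 0. Of the assembly factors 12 of 17 fell and 2 rose (median −0.55), of the polymerase-associated proteins 6 of 12 fell and 1 rose (−0.50), and of the cytosolic ribosomal proteins 12 of 27 fell and none rose (−0.43). Of all genes 17.4% were called higher and 17.1% lower. PTAC12, a component of the plastid polymerase complex, had 535, 486, 442 and 537 normalized counts at 100 ppm, against 989, 1157, 1102 and 1434 at 400 ppm (−1.22, limma adjusted p = 3.77e-06). The cytosolic RPL4D had 2627, 2336, 1815 and 1769 at 100 ppm, against 3903, 4140, 4293 and 4906 at 400 ppm (−1.03, limma adjusted p = 4.24e-06).

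Of the plastid-encoded genes 6 of 21 rose and 1 fell at 100 ppm under GL (median 0.09). All genes of the plastid genome took 0.811% to 1.45% of the normalized counts of a leaf. Some of the 21 were near the floor, such as rps16 with a mean of 1.18 at 400 ppm under GL. The rise was led by rpl32, with 7927, 26289, 11546 and 18445 normalized counts at 100 ppm, against 1990, 6309, 4425 and 5710 at 400 ppm (1.78, limma adjusted p = 0.000278). Its leaves were widely spread but did not overlap. The cytosolic and plastid-encoded lists moved in opposite directions at 0 ppm against 100 ppm under PSI-PI, where 22 of 27 cytosolic genes rose (median 0.61) and 15 of 21 plastid-encoded genes fell (median −0.98), beside the 34 of 38 that fell here. Of all genes 15.1% were called higher and 17.7% lower there.

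Further plastid ribosome genes outside the 38 were measured too. SSR16, the nuclear gene for the S16 protein of the small subunit, had 13526, 10514, 14924 and 15335 normalized counts under PSI-PI at 400 ppm, against 6691, 7658, 6882 and 7719 under GL (0.89, limma adjusted p = 0.000272). At 100 ppm under GL it rose by 1.02 (limma adjusted p = 3.72e-05), and at 0 ppm under GL it fell by 0.50 (limma adjusted p = 0.0241), a call lost in 5 of the 8 fits without 1 leaf (adjusted p = 0.00636 to 0.0728). PSRP1, related to bacterial factors that keep idle ribosomes inactive, had 12564, 12274, 12072 and 15718 at 100 ppm under GL, against 6082, 5305, 4460 and 4853 at 400 ppm (1.35, limma adjusted p = 0.00123). At 0 ppm under GL it was not called (0.30, adjusted p = 0.479). PSRP3/2, the second PSRP3 gene, averaged 225 ± 10.1 normalized counts at 100 ppm GL and 160 ± 12.2 at 400 ppm GL (SD, n = 4 each), and it rose (0.49, limma adjusted p = 0.00616).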

How the data were processed

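Leaf RNA of 32 samples in 8 groups (4 CO2 levels, each under PSI-PI or GL, 4 biological replicates each) was sequenced. According to the submitters' notes and the methods of the study, the authors quantified reads with Salmon 0.12 on TAIR10 cDNA, summed transcripts to genes and used DESeq2. The deposited values used here are normalized gene counts, a signal and not raw read counts: 95.0% of them were not whole numbers (tolerance 1e-06), and the median ratio to the geometric mean was 1.01 in every sample. Whole reads could not be recovered, so no count model was run and read depth is unknown. The deposited log2 fold changes and p-values of the authors' own comparisons were not used.

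Genes with a summed value of at least 10 were kept (21469 of 21525). Log2(value + 1) was fitted with limma 3.58.1 in R 4.3.3 (lmFit, eBayes with trend), with 8 group means and 24 residual degrees of freedom. Tests were two-sided, with Benjamini-Hochberg adjustment per comparison at 0.05. The p-values rest on the spread between leaves within groups, pooled over all 8 groups and moderated by eBayes, and not on the compared groups alone. On simulated data for PSI-PI against GL at 400 ppm (21418 genes), 18 of 100 genes changed by 0.5 and 63 of 100 changed by 1 on the log2 scale were recovered. For the interaction of 0 ppm (21419 genes), 3 and 39 of 100 were.

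The members and gene lists were chosen with earlier results of these data known. Genes were named by a rule: DEGs, the 3 largest called changes each way per comparison, the 3 highest and lowest levels per kb, genes of the same protein, and up to 3 genes of each other list. PRPL1, PRPL6, PRPL10, PRPL27, PRPS1, PRPS10, PSRP2, PSRP3/1 and the genes listed where 5 or fewer remained were named after their values were seen. Gene positions and promoters come from RefSeq's TAIR10.1 annotation, in which all 38 genes were found. Alternatives were the pseudocount (0.5, 5), the filter (none, or at least 10 in 4 samples), fits on the compared samples alone, a replicate block, quantile normalization, scaling to equal totals, no mean-variance trend, the DEG rule, and leaving out each leaf. Python 3.11.15, pandas 2.3.3, numpy 2.4.6 and matplotlib 3.10.9 were used.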

Additional observations from a re-analysis of the deposited data

Results flagged for a closer look

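In 18 of 312 groups of 4 leaves, for the 38 genes and the summed level, 1 leaf stood apart from the other 3 by Dixon's criterion at 95%, where chance alone marks about 1 group in 20. At 1000 ppm under PSI-PI replicate 4 was the high leaf for PRPL4 (6466 normalized counts), PRPL10 (6791), RPL12-A (12121), PRPL17 (6340), PRPL28 (3196), PRPL34 (2958), PRPS6 (2839), PSRP3/1 (6587) and PSRP4 (2196). At 400 ppm under PSI-PI replicate 2 was the low leaf for PRPL6 (9513), PRPL31 (3643) and PRPS9 (4332). At 100 ppm under PSI-PI replicate 1 was the low leaf for PRPL31 (5315) and PRPS13 (8004), although it was the highest leaf for 31 of the 38 genes. PRPL11 was high in replicate 4 at 0 ppm under PSI-PI (3870) and RPL12-A in replicate 3 at 0 ppm under GL (9566). At 400 ppm under GL PRPL34 was high in replicate 4 (3084) and PSRP6 low in replicate 1 (1618).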

How the results depend on the processing

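The number of the 38 genes called stayed within 1.5 times its value under both pseudocounts, both filters and the replicate block, which changed no other call beyond that range and gave 25, 1, 26 and 3 for PSI-PI against GL at 0, 100, 400 and 1000 ppm. The replicate numbers are not said to pair the leaves. Same-numbered leaves correlated by −0.13 to 0.11 on average, with single pairs from −0.505 to 0.283. For 1000 against 400 ppm in PSI-PI 3 of 4 pairs were above 0.1. These values do not show whether replicates shared a batch. Fits on the compared leaves alone gave 0, 3 and 0 for PSI-PI against GL at 0, 100 and 1000 ppm, 25 for 100 against 400 ppm in GL, and 2 and 4 for 0 and 100 against 400 ppm in PSI-PI. Quantile normalization gave 0, 8 and 1 for PSI-PI against GL at 100, 400 and 1000 ppm, 5 for 100 against 400 ppm in GL and 19 for 0 against 100 ppm in PSI-PI. Equal totals gave 0, 15 and 1, then 5 for 100 against 400 ppm in GL, 7 in PSI-PI and 14 for 0 against 100 ppm in PSI-PI. Without a mean-variance trend 100 against 400 ppm in PSI-PI gave 0. As DEGs there were 20 and 2 for 0 against 100 ppm in GL and PSI-PI, 3 for 0 against 400 ppm in GL and 0 in every other comparison with calls. Leaving out 1 leaf gave 10 to 25, 0 to 1, 9 to 33 and 0 to 31 for PSI-PI against GL from 0 to 1000 ppm. For 0, 100 and 1000 against 400 ppm it gave 29 to 32, 6 to 12 and 0 to 29 in GL, and 21 to 31, 0 to 1 and 0 to 30 in PSI-PI. For 0 against 100 ppm it gave 37 to 38 in GL and 26 to 35 in PSI-PI, and the 3 interactions stayed at 0. The causes were not tested. Of 2056 alternative values of 121 named gene and comparison pairs, 1925 kept their side of the threshold, 124 lost a call, 3 gained one and 4 changed sign: PSRP3/2 at 0 against 400 ppm in GL under equal totals (0.037), RPL12-A at 100 against 400 ppm in GL under quantile normalization (−0.094) and equal totals (−0.11), and RPL12-C in the same comparison without 400 ppm GL replicate 4 (0.029, and −0.12 to 0.029 over all leaves left out). With 4 leaves a group, changes near 0.5 on the log2 scale were mostly missed in simulated data where few genes changed. That setting differs from the data and does not give the power for the 38 genes. At 400 ppm, PSI-PI against GL, 25 of the 38 were called, with a median log2 fold change of 0.51 over the 38. Genes not called are still not shown to be unchanged.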
